A study of Mus musculus with 8 samples.

Results

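The genes described here are 31 mouse genes of cholesterol and fatty acid metabolism, out of 53647 gene identifiers counted in the series. They were chosen by symbol from a list of sterol synthesis, sterol transport, lipogenesis and SREBP control genes. They comprise 7 genes of the mevalonate steps, 11 of the squalene and sterol steps, 2 of sterol transport, 5 of SREBP control and 6 of fatty acid synthesis. The rule itself uses symbols and no measured value, though the list was drawn up with earlier results of these data known, and all 31 passed the filter on low counts, with 136 (Abca1) to 59323 (Scd2) counts in a library. RNA came from primary myotubes, fused muscle fibres grown in culture from myoblasts of wild-type pups aged 2 to 3 days. The muscle of origin was limb muscle, and cells differentiated in medium containing 5% horse serum. Cultures were treated for 48 h with interleukin 6 (IL6), LIF (leukaemia inhibitory factor) or OSM (oncostatin M), each at 250 ng/ml, or served as controls. Harvest was at 72 h of differentiation in every group. Each of the 4 groups holds 2 libraries. The labels do not say whether these came from separate animals or cultures, so p-values measure the spread between these samples, which may be technical.

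Cholesterol is built from acetyl-CoA through mevalonate, isoprenoid units, squalene and a series of sterol intermediates. SREBP2, the product of Srebf2, activates genes along this route, and SREBP1, the product of Srebf1, acts more on fatty acid synthesis. When sterols are low, the escort protein SCAP carries SREBPs to the Golgi for cleavage, and when sterols are high the INSIG proteins hold SCAP in the endoplasmic reticulum. Oxysterols, which build up when cells hold surplus cholesterol, instead activate the LXR receptors, which induce the cholesterol exporter ABCA1. The 3 cytokines belong to the IL6 family, whose receptors share the subunit gp130 and activate JAK kinases and STAT3. Muscle fibres need cholesterol for their membranes and use fatty acids as fuel.

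Many promoters of the pathway carry short elements of factors known to partner SREBP, while the SREBP element itself was matched in Hmgcs1 alone. The 5 stretches shown carry matches and belong to genes with the values described below or to neighbouring steps. Sequences are from RefSeq on GRCm38.p6, read 5′ to 3′ on the gene's strand, and capitals mark the letters of a match on either strand to one of the motifs searched. Hmgcs1 is shown at chr13:119690201-119690320 (plus strand), Msmo1 at chr8:64733619-64733688 (minus strand), Cyp51 at chr5:4104708-4104777 (minus strand), Ebp at chrX:8193533-8193612 (minus strand) and Abca1 at chr4:53159976-53160065 (minus strand).
Hmgcs1: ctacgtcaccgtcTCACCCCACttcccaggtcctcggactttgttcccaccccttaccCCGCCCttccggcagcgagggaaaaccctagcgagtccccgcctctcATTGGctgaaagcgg
Msmo1: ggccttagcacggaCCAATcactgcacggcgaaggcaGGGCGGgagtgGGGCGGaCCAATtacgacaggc
Cyp51: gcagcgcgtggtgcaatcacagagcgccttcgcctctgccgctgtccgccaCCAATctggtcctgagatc
Ebp: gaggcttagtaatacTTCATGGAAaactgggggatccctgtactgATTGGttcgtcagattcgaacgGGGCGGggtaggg
Abca1: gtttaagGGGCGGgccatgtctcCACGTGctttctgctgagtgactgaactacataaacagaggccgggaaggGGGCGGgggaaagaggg

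Windows of 250 bases before to 50 after a gene's start were found for 25 of the 31 genes (33 windows), and none was matched for Fdps, Fdft1, Sqle, Stard4, Scd1 or Scd2. The CCAAT box, the element of NF-Y, a partner of SREBP, was in 14 of the 15 mevalonate and sterol genes with a window. It was in 77.8% of their windows, against 37.6% of the windows of the genes tested and 37.4% of all 32851 windows. GGGCGG, the Sp1 element, was in 83.3% of the mevalonate and sterol windows against 60.2% for genes tested. Over the windows of all members, CCAAT was in 63.6% and GGGCGG in 75.8%. The SREBP element core TCACNCCAC, searched in this form only, was in 1 member, Hmgcs1 (3.03% of the members' windows), and in 1.17% of windows of genes tested. The E-box CACGTG, which reads the same on both strands, was in 21.2% of the members' windows against 9.7% for genes tested. In the mevalonate and sterol windows it was in 16.7%. The same Scap site was counted in overlapping windows of that gene. The STAT element TTCNNNGAA, also the same on both strands, was in Ebp alone among the members (3.03% of windows, against 6.69% for genes tested). The LXR DR4 element, a direct repeat searched without degenerate half-sites, was in none of the members' windows and in 0.014% of windows of genes tested. That form is too rare for its absence to say anything about these genes. None of the motifs overlapped in the stretches shown, and a match describes letters, not binding.

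Libraries held 29482077 to 30025471 gene counts, and 15603 genes were tested. The 9 myotube markers were all detected, with summed levels of 27930 and 26890 CPM (counts relative to the library's total, with TMM scaling) in controls, 23720 and 25910 with IL6, 25400 and 23940 with LIF, and 23870 and 23630 with OSM. Of these 9, 8 had values below control with OSM, 9 with LIF and 9 with IL6. With OSM 2 were called (22.2%, against 21.4% of all genes tested), with LIF 1 (11.1%, against 7.66%) and with IL6 none. Adipocyte markers summed to 0.304 to 0.794 CPM with IL6, 0.234 to 0.639 with LIF and 0.412 to 0.571 in controls, with Retn and Cfd at 0 in all 8 libraries. In OSM libraries they summed to 1.28 and 1.61 CPM, and Fabp4, the 1 marker with enough counts to be tested, rose by 1.68 on the log2 scale (adjusted p = 0.0104, and 0.0985 without OSM replicate 1 or 0.0687 without control replicate 1). Markers of dividing cells fell in 6 of 6 with OSM and in 6 of 6 with LIF, from summed levels of 718 and 851 CPM in controls to 567 and 522 with LIF and 202 and 246 with OSM. With IL6 they stood at 676 and 725 CPM. Without LIF replicate 2, 1 of the 6 falls with LIF was still called, that of Mki67. Fibroblast markers summed to 1652 and 1716 CPM in controls, 1503 and 1703 with IL6, 2046 and 1983 with LIF, and 2058 and 2166 with OSM, with Lum at 0 throughout. Most of that sum was Col3a1, at a mean of 1433 CPM in controls and 2018 with OSM, while Col1a1 had means of 239 and 78.4 CPM. The part of these markers in the results below was not tested, and in bulk RNA a change in cell makeup cannot be told apart from a change per cell.

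Within control myotubes, levels of the 31 genes per kilobase of exon ran over a wide range. Scd2, a stearoyl-CoA desaturase that makes monounsaturated fatty acids, stood highest at 297 CPM per kb. Insig2 at 47.1, Srebf2 at 44.2 and Hmgcs1 at 42.1 CPM per kb came next, and these 3 lie close together. Scd1, the related desaturase, stood at 25.9 CPM per kb. At the other end were Acaca at 2.56, the sterol reductase Tm7sf2 at 1.68 and Abca1 at 0.496 CPM per kb. With OSM, Abca1 was still the lowest at 1.46 CPM per kb, next to Tm7sf2 at 1.75.

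**Figure D1:**
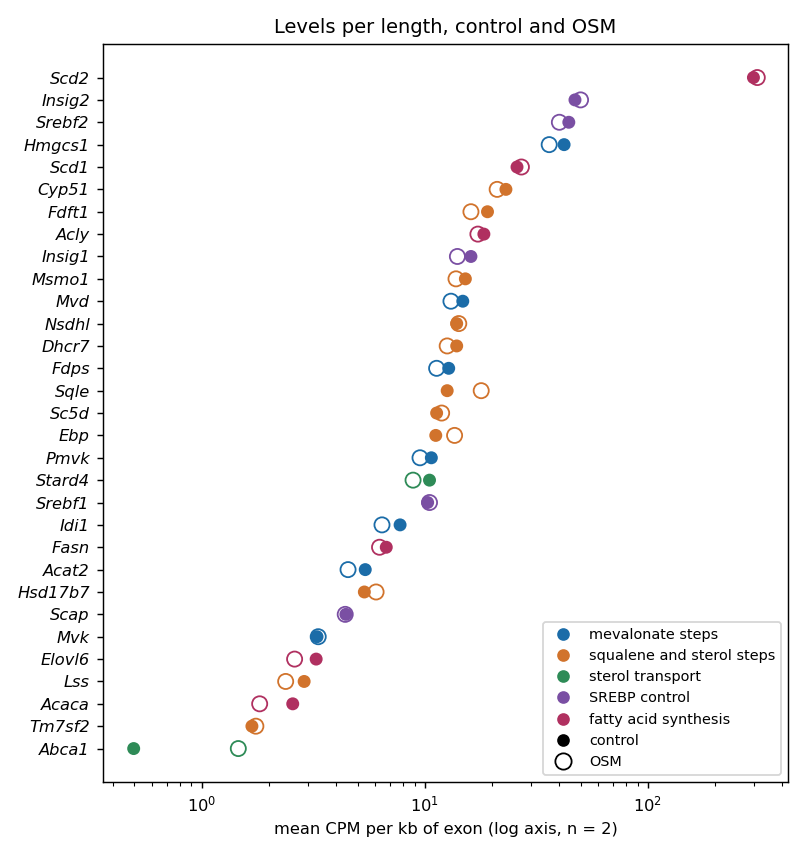
Mean level per kilobase of exon (CPM per kb, log axis, n = 2 libraries) for the 31 genes, in controls (filled) and with OSM (open), coloured by role. Scd2 lies far above the rest at 297 CPM per kb in controls, and Abca1, the lowest, moves from 0.496 to 1.46.

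Against control, the exporter gene Abca1 rose 2.94-fold with OSM, and 5 genes of synthesis or transport fell by smaller amounts: Hmgcs1, Fdft1, Stard4, Acaca and Elovl6. With LIF, Abca1 and Ebp rose and Dhcr7 fell. With IL6, none of the 31 passed the test. Calls are adjusted p-values under 0.05 in edgeR's quasi-likelihood test, with Benjamini-Hochberg adjustment over all genes tested. With OSM, 6 of 31 (19.4%) were called, against 21.4% of all genes tested, so the number called is near the background and is no result about these genes as a group. By direction, 1 rose against a background of 10.8% and 5 fell against 10.6%. With LIF, 3 of 31 (9.68%) were called against 7.66% of all genes, with 2 higher (background 4.2%) and 1 lower (3.46%). With IL6, 0 of 31 were called, as were 0% of all genes, while at an unadjusted p under 0.05 there were 1 of the 31 and 795 of all genes, and DESeq2 called 0 and 17.

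The typical change was small with each cytokine. The median log2 change over the 31 was -0.13 with OSM, -0.08 with LIF and 0.02 with IL6, against -0.0029, -0.0079 and 0.0006 over all genes tested. With OSM, 12 of the 31 values were above 0 and 19 below, with LIF 8 and 23, and with IL6 21 and 10. Both OSM libraries lay beyond both control libraries for 14 of 31 (5 above and 9 below), where 60.9% of all genes tested did so (29.9% above and 31% below). For LIF the count was 17 of 31 (5 above and 12 below), against 52% of all genes (25.2% above and 26.8% below). For IL6 it was 8 of 31 (4 above and 4 below), against 28.2% (14% above and 14.1% below). These 3 comparisons share the control libraries. The number of the 31 called with OSM, and that called with LIF, changed when single libraries were left out. The number of all genes called changed as well, so these changes are no result about the 31 genes as a group.

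**Figure D2:**
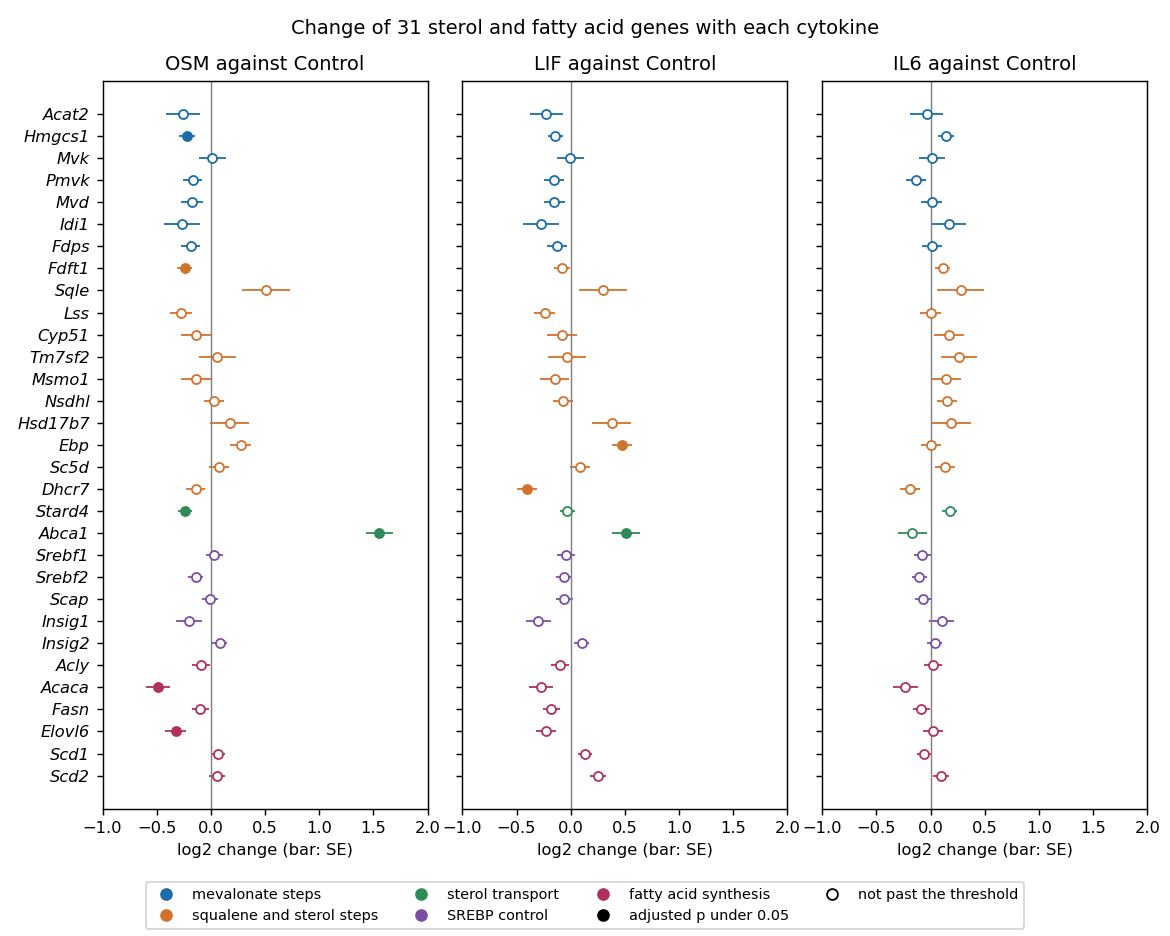
Log2 change against control for each of the 31 genes with OSM, LIF and IL6 (points, with bars of 1 SE; filled points have an adjusted p under 0.05), coloured by role. Abca1 at 1.55 with OSM stands to the right of the other genes, most of which lie between -0.5 and 0.5. With LIF, Abca1 at 0.51 lies close to Ebp at 0.47, and no point is filled with IL6.

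The sterol transport genes held the largest change. ABCA1 moves cholesterol and phospholipid out of cells to lipid-poor apolipoproteins. Abca1 stood at 5.35 and 4.94 CPM in controls, 4.57 and 4.59 with IL6, 7.03 and 7.64 with LIF, and 15.5 and 14.7 with OSM. The OSM libraries lay above all others, the LIF libraries lay between, and the IL6 libraries lay just under the controls. Its log2 change was 1.55 with OSM (SE 0.12, adjusted p = 1e-06) and 0.51 with LIF (SE 0.13, adjusted p = 0.0282). With IL6 it was -0.17 (SE 0.14, adjusted p = 0.95). The direct comparison gave 1.04 for OSM over LIF (SE 0.12, 95% interval 0.79 to 1.30, adjusted p = 8.9e-05) and 1.72 for OSM over IL6 (SE 0.12, adjusted p = 6.33e-07). The difference of LIF from IL6 was 0.68 (SE 0.13, adjusted p = 0.0148), with an adjusted p of 0.1 without LIF replicate 1 and 0.188 without LIF replicate 2. The OSM differences were called under every alternative tried. The LIF call against control was not, with an adjusted p of 0.069 by DESeq2, 0.103 without LIF replicate 1, 0.258 without LIF replicate 2, 0.0622 without control replicate 1, 0.13 without control replicate 2, 0.0568 without OSM replicate 1 and 0.0559 without OSM replicate 2. Macrophage markers, for cells known to express Abca1, summed to 2.57 and 2.89 CPM in controls, 4.5 and 3.1 with IL6, 3.50 and 3.62 with LIF, and 5.20 and 4.93 with OSM. That sum was mostly Cd68 (54 to 125 counts in a library) and Itgam (14 to 47). Ptprc had 0 to 3 counts, Adgre1 0 to 1 and Lyz2 1 to 5. With OSM 1 of the 2 macrophage markers with enough counts rose, Cd68 at a log2 change of 1.03. The part of these markers in the Abca1 result was not tested.

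Stard4 encodes a soluble protein that carries cholesterol between membranes and is itself an SREBP2 target. It stood at 58.4 and 58.4 CPM in controls, 69.2 and 62.8 with IL6, 58.0 and 56.3 with LIF, and 50.01 and 48.96 with OSM. The OSM libraries were the lowest of the 8 and the IL6 libraries the highest. The log2 change with OSM was -0.24 (SE 0.07, adjusted p = 0.0239), and against IL6 it was -0.42 (SE 0.07, adjusted p = 8.43e-04), a call kept under every alternative. The call against control was lost when any one library of OSM, control or LIF was left out, with adjusted p from 0.0505 to 0.157. With LIF the log2 change was -0.03 (SE 0.07, adjusted p = 0.861). The difference of OSM from LIF was -0.21 (95% interval -0.36 to -0.06, adjusted p = 0.0875).

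**Figure D3:**
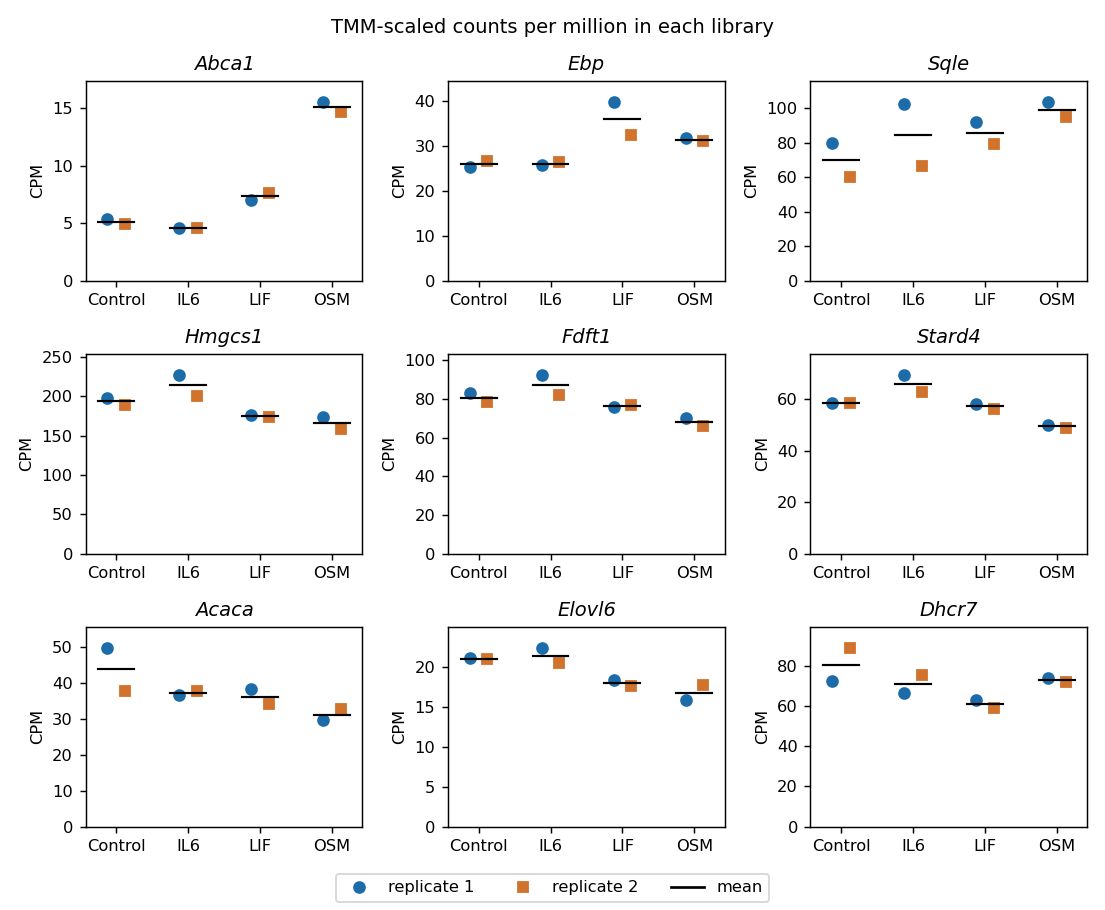
CPM in each of the 8 libraries (circles replicate 1, squares replicate 2, bars the mean) for Abca1, Ebp, Sqle, Hmgcs1, Fdft1, Stard4, Acaca, Elovl6 and Dhcr7, each axis starting at 0. Abca1 with OSM (15.5 and 14.7) lies far above the other libraries, while for Sqle (79.6 and 60.1), Acaca (49.6 and 37.8) and Dhcr7 (72.6 and 88.6) the control libraries lie far apart.

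Of the 7 genes of the mevalonate steps, 1 fell with OSM (background 10.6%), none rose, and 6 were not called. HMGCS1 condenses acetyl-CoA and acetoacetyl-CoA to HMG-CoA. Hmgcs1 stood at 198 and 189 CPM in controls, 226 and 201 with IL6, 177 and 174 with LIF, and 174 and 158 with OSM. Both OSM libraries and both LIF libraries were below the controls, and both IL6 libraries were above. The log2 change with OSM was -0.22 (SE 0.07, adjusted p = 0.041), and it lost its call when any one library of OSM, control or LIF was left out, with adjusted p of 0.0566 to 0.349. Against IL6 the OSM value was -0.37 (SE 0.07, adjusted p = 0.00304), with an adjusted p of 0.077 without OSM replicate 2. With LIF against control it was -0.14 (adjusted p = 0.287). The other 6 mevalonate genes had log2 values with OSM from -0.27 (Idi1, the isomerase of isoprenoid units) to 0.01 (Mvk, mevalonate kinase). Between these lay Acat2, an acetoacetyl-CoA thiolase, at -0.26, Fdps, the farnesyl diphosphate synthase, at -0.19, Mvd at -0.17 and Pmvk at -0.17. Counts of several of these genes are uncertain. Acat2 shares 45.9%, Idi1 30.5% and Hmgcs1 13.6% of their 50-base stretches with transcripts of other genes on either strand. Of Fdps exon bases, 26.7% overlap Gm43738 on the same strand, which had 0 counts. Gm48342, which shares with Hmgcs1, overlaps it on the opposite strand and had 0 to 6 counts. Gm13502, which shares with Idi1, had 0 to 7. Acat2 shares with Acat3 (2 to 19 counts) and Tcp1 (19868 to 21940). With LIF all 7 values were below 0, from -0.28 (Idi1) to -0.0025 (Mvk), and none was called.

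Among the 11 genes from squalene to cholesterol, 1 fell with OSM (Fdft1, background 10.6%), and with LIF 1 rose (Ebp, background 4.2%) and 1 fell (Dhcr7, background 3.46%). FDFT1, squalene synthase, makes the first committed step to sterols. Fdft1 stood at 83.0 and 78.2 CPM in controls, 92.1 and 82.2 with IL6, 75.7 and 76.7 with LIF, and 70.3 and 66.1 with OSM. The OSM libraries were the lowest of the 8. The log2 change with OSM was -0.24 (SE 0.07, adjusted p = 0.0275), and it was -0.35 against IL6 (SE 0.07, adjusted p = 0.00373). The call against control was lost without control replicate 1 (0.144), LIF replicate 1 (0.0562), LIF replicate 2 (0.0563), OSM replicate 1 (0.0853) or OSM replicate 2 (0.225), all adjusted p. The call against IL6 was lost without OSM replicate 2 (adjusted p = 0.0723). In the GENCODE M21 annotation 18.3% of Fdft1 exon bases overlap Ctsb on the opposite strand, and Ctsb, with 11872 to 24167 counts, had a log2 change of 0.85 with OSM. Of the 50-base stretches of Fdft1, 30.7% are shared with other transcripts. That search took both strands and matched Ctsb most often, so the share is not separate from this overlap. The strand setting of the counting is not given in the sources used here, so the 2 genes' reads may not be fully separated.

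EBP is the isomerase that shifts a double bond in the sterol ring, and DHCR7 is the reductase of 7-dehydrocholesterol, the substrate that also yields vitamin D. Ebp stood at 25.4 and 26.6 CPM in controls, 25.8 and 26.3 with IL6, 39.7 and 32.5 with LIF, and 31.7 and 31.1 with OSM. All 4 LIF and OSM libraries lay above all 4 control and IL6 libraries. The log2 change was 0.47 with LIF (SE 0.09, adjusted p = 0.00723), which without LIF replicate 1 was 0.32 (adjusted p = 0.137). With OSM it was 0.27 (SE 0.09, adjusted p = 0.055), and the difference of OSM from LIF was -0.20 (95% interval -0.40 to -2.4e-04, adjusted p = 0.241). Against IL6 the LIF value was 0.47 (SE 0.09, adjusted p = 0.0182), and it was not called without IL6 replicate 1 (adjusted p = 0.0505) or LIF replicate 1 (adjusted p = 0.293).

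Dhcr7 stood at 72.6 and 88.6 CPM in controls, 66.4 and 75.2 with IL6, 62.9 and 58.8 with LIF, and 74.1 and 72.0 with OSM. The LIF libraries were the lowest of the 8, and the control libraries differed more from each other than those of any other group. The log2 change with LIF was -0.41 (SE 0.09, adjusted p = 0.0169). Without control replicate 2, the higher of the controls, it was -0.25 (adjusted p = 0.131), and it was not called without LIF replicate 1 (0.0789) or LIF replicate 2 (0.202). With OSM it was -0.14 (SE 0.09, adjusted p = 0.315).

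SQLE, squalene epoxidase, is a flux-controlling enzyme of the pathway. Sqle stood at 79.6 and 60.1 CPM in controls, 103 and 66.5 with IL6, 92.4 and 79.3 with LIF, and 103 and 94.9 with OSM. Both OSM libraries were above both controls, but replicate 1 of the IL6 group reached nearly the same level and the control libraries lay far apart. Its log2 value with OSM was 0.51 (SE 0.22, 95% interval -0.02 to 1.03, adjusted p = 0.166), the largest after that of Abca1, and it did not pass the test. With replicate number added to the fit as a block, it was 0.52 (adjusted p = 0.00192), though the labels do not pair equal numbers. Lss, Ebp and Fdps also gained a call with OSM in that fit, and Scd2 and Insig1 with LIF. In the main analysis, the other 7 sterol-step genes with no call in either comparison had log2 values with OSM from -0.28 (Lss, lanosterol synthase, adjusted p = 0.0656) to 0.17 (Hsd17b7, a ketosteroid reductase). Cyp51 stood at -0.13, Msmo1 at -0.14, Nsdhl at 0.03, Tm7sf2 at 0.06 and Sc5d at 0.07. With LIF, Hsd17b7 had 0.38 (adjusted p = 0.288) and Lss -0.24 (adjusted p = 0.186). Over the 18 mevalonate and sterol genes together the median log2 change was -0.14 with OSM (7 above 0 and 11 below) and -0.10 with LIF (4 and 14). It was 0.12 with IL6 (15 above 0 and 3 below), where 7844 of 15603 genes tested were above 0. The IL6 median was -0.05 without IL6 replicate 1 (5 above 0 and 13 below), 0.02 without control replicate 2 and 0.21 without IL6 replicate 2. The LIF median was -0.03 without control replicate 1 and -0.16 without LIF replicate 1. The OSM median was -0.04 without OSM replicate 2, -0.23 without OSM replicate 1 and -0.05 without control replicate 1.

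None of the 5 SREBP control genes was called with any cytokine. Srebf2 stood at 329 and 306 CPM in controls, 283 and 309 with IL6, 312 and 295 with LIF, and 298 and 278 with OSM. Both OSM libraries were below both controls, and the log2 value was -0.14 (SE 0.07, 95% interval -0.29 to 0.0041, adjusted p = 0.164). Srebf1 stood at 61.4 and 54.4 CPM in controls, 56.7 and 53.3 with IL6, 58.1 and 54.1 with LIF, and 62.6 and 56.0 with OSM. Its groups overlapped throughout, with a log2 value of 0.03 with OSM (95% interval -0.14 to 0.21, adjusted p = 0.817). Insig1, an SREBP2 target that restrains the pathway, stood at 54.9 and 44.5 CPM in controls, 58.5 and 48.2 with IL6, 41.6 and 39.2 with LIF, and 46.35 and 40.03 with OSM. Both LIF libraries were below both controls, at a log2 value of -0.30 (SE 0.12, adjusted p = 0.178), and with OSM the groups overlapped at -0.20 (adjusted p = 0.269). Insig2 and Scap had log2 values between -0.07 and 0.10 across the 3 cytokines.

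Of the 6 genes of fatty acid synthesis, 2 fell with OSM, where 10.6% of all genes tested fell, and none was called with LIF or IL6. ACACA, acetyl-CoA carboxylase 1, makes malonyl-CoA, the building block of fatty acids. Acaca stood at 49.6 and 37.8 CPM in controls, 36.7 and 37.8 with IL6, 38.3 and 34.0 with LIF, and 29.6 and 32.7 with OSM. The OSM libraries were the lowest of the 8, and control replicate 1 stood above all others. The log2 change with OSM was -0.49 (SE 0.11, adjusted p = 0.00914), -0.28 without control replicate 1 (adjusted p = 0.0783) and -0.41 without OSM replicate 1 (adjusted p = 0.111). Of the 50-base stretches of its longest transcript, 52.6% also occur in Gm5182, which had 0 to 10 counts. ELOVL6 lengthens palmitate to stearate. Elovl6 stood at 21.1 and 20.9 CPM in controls, 22.3 and 20.4 with IL6, 18.4 and 17.6 with LIF, and 15.8 and 17.7 with OSM. All LIF and OSM libraries were below all control and IL6 libraries. The log2 change with OSM was -0.32 (SE 0.09, adjusted p = 0.0263), and with LIF it was -0.23 (SE 0.09, adjusted p = 0.19). The OSM call was lost with DESeq2 (adjusted p = 0.059) and without OSM replicate 1 (0.244), control replicate 1 (0.0867), control replicate 2 (0.0771), LIF replicate 1 (0.0504) or LIF replicate 2 (0.0504). Against IL6 the OSM value for Elovl6 was -0.35 (adjusted p = 0.0225), which was not called with DESeq2 (0.0501), with only the 2 groups compared (0.0513), without IL6 replicate 1 (0.11) or without OSM replicate 1 (0.237).

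Fasn, which encodes the fatty acid synthase, stood at 77.7 and 69.4 CPM in controls, 71.3 and 67.3 with IL6, 67.5 and 62.4 with LIF, and 72.8 and 64.6 with OSM. The OSM and control libraries overlapped, at a log2 value of -0.10 (95% interval -0.27 to 0.07, adjusted p = 0.427). The desaturase gene Scd1 stood at 128 and 125 CPM in controls, 115 and 128 with IL6, 145 and 133 with LIF, and 133 and 131 with OSM. Its log2 values of 0.07 with OSM (adjusted p = 0.539) and 0.13 with LIF (adjusted p = 0.279) were not called, although both groups lay above the controls. Scd2 stood at 1738 and 1504 CPM in controls, 1770 and 1698 with IL6, 1995 and 1873 with LIF, and 1734 and 1646 with OSM. The LIF libraries were the highest of the 8, at a log2 value of 0.25 (SE 0.07, adjusted p = 0.0574), and with OSM the groups overlapped at 0.06. Acly, the ATP citrate lyase that supplies acetyl-CoA, had log2 values of -0.09 with OSM and -0.10 with LIF.

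Set against each other, OSM and LIF differed in 1 of the 31 genes, Abca1, at a background of 8.04% of all genes tested (4.01% higher and 4.04% lower with OSM). Their libraries did not overlap for 9 of the 31 (3 higher and 6 lower with OSM), against 56.6% of all genes tested (28.1% higher and 28.6% lower). Intervals of the other 30 differences between OSM and LIF spanned 0 for 25, and the exceptions at an unadjusted p under 0.05 were Fdft1, Ebp, Dhcr7, Stard4 and Scd2, of which the smallest adjusted p was 0.0875. For Fasn the difference was 0.08 (95% interval -0.09 to 0.25) and for Srebf2 -0.07 (95% interval -0.22 to 0.07). Against IL6, OSM differed in 5 genes (1 higher and 4 lower), where 15.5% of all genes did (8.02% higher and 7.52% lower), and the libraries did not overlap for 15 of the 31 (4 higher and 11 lower) against 54.3% of all genes (26.7% higher and 27.6% lower). LIF differed from IL6 in 2 genes, both higher, where 2.78% of all genes did (1.76% higher and 1.02% lower), and the libraries did not overlap for 17 of the 31 (4 higher and 13 lower) against 43.5% of all genes (21.3% higher and 22.3% lower). For both comparisons with IL6, the number of the 31 called changed when single libraries were left out. The number of all genes called changed as well, so these changes are no result about the 31 genes as a group.

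The replicate libraries of a group differed from each other in a way that runs through the pathway. The library numbered 1 was higher than the library numbered 2 in 27 of 31 genes in controls, 24 with IL6, 27 with LIF and 29 with OSM, where this held for 50%, 50.1%, 51.4% and 49.5% of all genes tested. In 19 of 31 (61.3%) the library numbered 1 was higher in all 4 groups, and in 0 it was lower in all 4. Over all genes tested, 9.68% were higher in all 4 and 9.68% lower in all 4. Sqle had ratios of replicate 1 to replicate 2 of 1.32, 1.54, 1.17 and 1.09 in control, IL6, LIF and OSM. Msmo1, the sterol methyl oxidase, had 1.24, 1.24, 1.10 and 1.21, and Insig1 had 1.23, 1.21, 1.06 and 1.16. Dhcr7 went the other way in controls (0.819) and with IL6 (0.883). The median gap over the 31 genes was 0.15 in controls, 0.13 with IL6, 0.09 with LIF and 0.12 with OSM on the log2 scale, about the size of the median change with OSM. The labels do not say that equal numbers mark a shared culture or day.

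**Figure D4:**
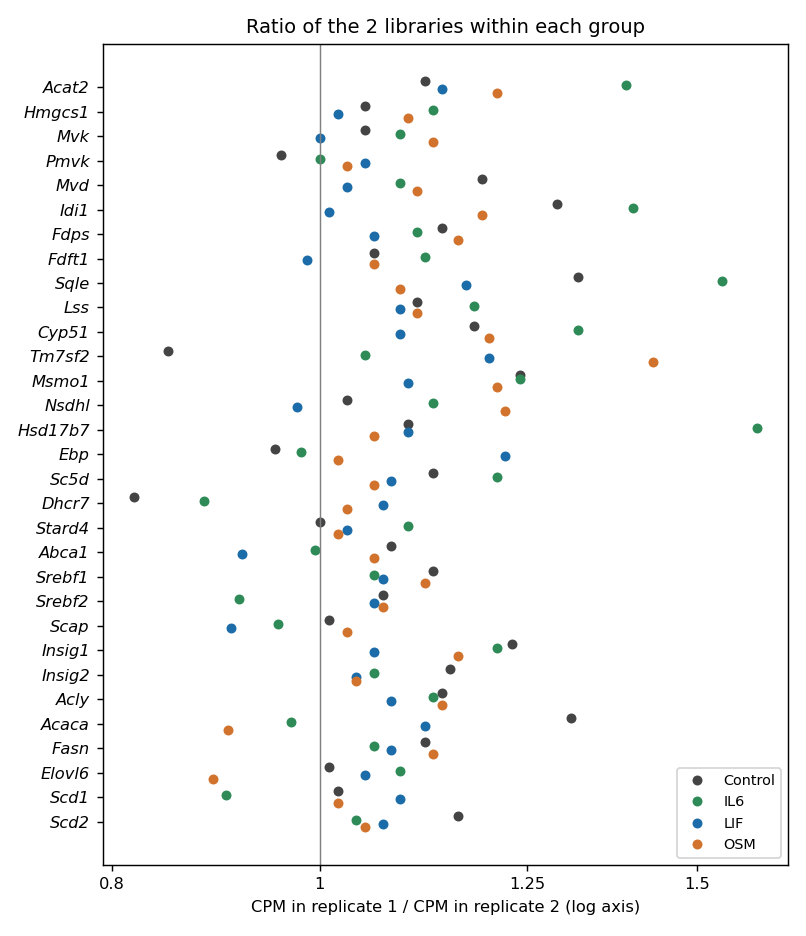
CPM in replicate 1 divided by CPM in replicate 2 (log axis) for each of the 31 genes in the 4 groups (colours), with a line at equal levels. Most points lie to the right of the line in each group, up to 1.6 for Hsd17b7 with IL6, while Dhcr7 reaches 0.819 in controls.

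Other genes of the surrounding pathways were read from lists written by function, with earlier results of these data known. The shares of all genes tested that rose and fell were 10.8% and 10.6% with OSM, and 4.2% and 3.46% with LIF. Of 7 tested genes of LXR signalling and cholesterol efflux, 3 rose with OSM and none fell. These were Lpcat3, which encodes a phospholipid-remodelling enzyme, at a log2 change of 0.47 (SE 0.08, adjusted p = 6.93e-04), the lysosomal cholesterol carrier Npc2 at 0.43 and Nr1h2, which encodes LXR beta, at 0.33. With LIF 1 of the 7 rose, Lpcat3, by 0.71 (SE 0.08, adjusted p = 1.34e-04). The other 4 were not called with OSM, where 2 of the 7 values were below 0, the lowest at -0.38. With LIF 6 were not called and 2 of the 7 values were below 0, the lowest at -0.57. The list's median was 0.15 with OSM and 0.10 with LIF. A part of LXR in these values was not tested. Of 15 other sterol and isoprenoid genes, 1 rose and 2 fell with OSM, namely Pgrmc1 at 0.27, the lamin B receptor and sterol reductase Lbr at -0.54 and the mitochondrial thiolase Acat1 at -0.39. With LIF 1 rose (Soat1, which esterifies cholesterol, at 0.19) and 2 fell (Lbr at -0.33 and Acat1 at -0.31). Of 10 other SREBP regulators, 1 fell with OSM (Erlin1 at -0.34) and 1 with LIF (Fbxw7 at -0.32). The median of the sterol list was -0.06 with OSM and that of the regulators was also -0.06. The calls of Lpcat3 with both cytokines and of Npc2, Lbr and Acat1 with OSM held under all 15 alternatives. With OSM the highest adjusted p over the alternatives was 0.094 for Nr1h2, 0.127 for Pgrmc1 and 0.356 for Erlin1, each without OSM replicate 1. With LIF it was 0.0841 for Acat1 without LIF replicate 1, and 0.147 for Lbr, 0.286 for Soat1 and 0.307 for Fbxw7 without LIF replicate 2.

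Of 18 tested genes of other fatty acid and glycerolipid synthesis, 4 rose and 5 fell with OSM (50% called, against 21.4% of all genes tested), with a median of -0.07. Those named by the rule as highest were the citrate carrier gene Slc25a1 at 0.43, Acsl4 at 0.41 and Dgat1 at 0.40. The largest falls were Dgat2 at -0.45 and the fatty acid desaturase genes Fads1 at -0.44 and Fads2 at -0.40. Dgat1 and Dgat2 encode unrelated enzymes for the last step of triglyceride synthesis, and their values had opposite signs. With LIF 3 rose and none fell (16.7% called, against 7.66%), these being Acsl1 at 0.44, Lpin1 at 0.42 and Gpam at 0.37. Of 20 genes of fatty acid oxidation and uptake, 4 rose and 2 fell with OSM (30% called, against 21.4%), with a median of 0.02. Plin2, a lipid droplet coat protein gene, was at 0.48, Acadm at 0.45 and Hadhb at 0.25, and the muscle fatty acid binding protein gene Fabp3 was at -0.69 and Echs1 at -0.27. With LIF 2 genes rose, among them Plin2 at 0.26, and 2 fell (Fabp3 at -1.01 and the fatty acid transporter gene Cd36 at -0.43), with a median of -0.02 over the list (20% called, against 7.66%). The calls of Slc25a1, Acsl4, Fads1, Acadm and Plin2 with OSM and of Lpin1 with LIF held under all 15 alternatives. With OSM the highest adjusted p was 0.0861 for Dgat1 and 0.0607 for Dgat2 without OSM replicate 1, 0.108 for Fads2, 0.165 for Hadhb and 0.108 for Echs1 without OSM replicate 2, and 0.122 for Fabp3 without control replicate 1. With LIF it was 0.105 for Acsl1, 0.0561 for Gpam, 0.186 for Plin2 and 0.0603 for Fabp3 without LIF replicate 2, and 0.111 for Cd36 without LIF replicate 1. With IL6, none of the genes in these lists passed the test.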

How the data were processed

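The authors deposited 1 file of gene counts per library in HTSeq layout, as raw counts with no normalization. The submitters' processing notes name FastQC 0.11.9, MultiQC 1.12, Trim Galore 0.6.5, STAR 2.7.3a, HTSeq 0.11.1, DESeq2 1.34.0 and the build GRCm39, without roles. The strand setting and annotation release are not given in the sources used here. Coordinates are printed only for RefSeq promoter windows on GRCm38.p6, which is not the build named in those notes. The library kit selected poly(A) RNA and kept strand, per the labels' protocols. Summary lines without a gene (11.72% to 12.66%) were left out. Symbols came from GENCODE M21, which held 52093 of the 53647 identifiers, with 99.8% of the counts.

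All 8 libraries were fitted together in edgeR 4.0.16 (R 4.3.3) with a mean for each of 4 groups (4 residual degrees of freedom), filterByExpr at a minimum count of 10, TMM scaling and a robust quasi-likelihood test of 6 contrasts, with Benjamini-Hochberg adjustment over 15603 genes and calls at 0.05. Replicates gave a mean chi-square of 2.97 to 12 per gene, so replicates differed by more than counting error. Alternatives were DESeq2 1.42.0, other filters and scalings, the 2 groups alone, a replicate block and each library left out. Lengths, exon overlap and shared 50-base stretches came from M21. CPM was given in each library for members called with OSM or LIF against control or between OSM and LIF, and always for Srebf1, Srebf2, Insig1, Hmgcs1, Sqle, Fasn, Scd1, Scd2 and Abca1, and at most 3 rises and 3 falls were named per other list, where 1 gene is not reported here. The members, lists and rules were chosen with earlier results of these data known.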

Additional observations from a re-analysis of the deposited data

How the results depend on the processing

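The rise of Abca1 with OSM, its differences of OSM from LIF and from IL6, and the lower Stard4 with OSM than with IL6 were called under all 15 alternatives, while each other call among the 31 genes was lost under at least 1. The cause was not tested. Of 2790 alternative values of the 31 genes, 2525 kept their sign and side of the threshold, 123 changed sign with neither value called, 95 gained a call, 46 lost one and 1 changed sign with a call, this being Hsd17b7 for OSM against IL6, at -0.02 in the main analysis and from -0.3184 to 0.3688 with each library left out, the latter without IL6 replicate 1 (adjusted p = 0.0255). With no filter on low counts, 7 of the 31 were called for LIF against control and 2 for OSM against LIF. There were 12 for OSM against IL6 and 7 for LIF against IL6. All genes called were then 97 for IL6 against control and 985 for LIF against IL6. Shares of all genes are not given here for the other contrasts, so counts of the 31 there are no result about them as a group. DESeq2 called 17 genes for IL6 against control and 4 of the 31 for LIF against IL6, the latter with no share of all genes given here. With only the 2 groups compared, OSM against LIF gave 2928 genes, 8 of them among the 31, in place of 1255 and 1.

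Leaving out each library in turn gave 1622 to 4067 genes for OSM against control (1 to 9 of the 31), 316 to 1688 for LIF (0 to 5) and 0 to 221 for IL6 (0 to 1). It gave 437 to 1764 for OSM against LIF (1 to 2 of the 31), 1105 to 2713 for OSM against IL6 (3 to 11) and 82 to 739 for LIF against IL6 (0 to 8). The median over the 31 ranged from -0.183 to -0.0043 for OSM, -0.144 to -0.0286 for LIF and -0.0423 to 0.119 for IL6 against control. It ranged from -0.0978 to 0.0552 for OSM against LIF, -0.207 to -0.000236 for OSM against IL6 and -0.206 to -0.0351 for LIF against IL6. A fit that leaves out 1 library assumes that the lone sample of its group varies like the other groups.

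The labels do not pair equal replicate numbers, and deviations of same-numbered libraries correlated at 0.00708 to 0.181 over all genes. With a replicate block, 10 of the 31 were called for OSM against control, 5 for LIF against control and 2 for OSM against LIF. There were 12 for OSM against IL6 and 7 for LIF against IL6. All genes called were 9 for IL6 against control and 826 for LIF against IL6. Shares of all genes with the block are not given here for the other contrasts, so counts of the 31 there are no result about them as a group. With the block, the calls gained for OSM against control were Sqle at 0.52 (adjusted p = 0.00192), Lss (0.0124), Ebp (0.0309) and Fdps (0.0464), and those for LIF against control were Scd2 at 0.26 (adjusted p = 0.0141) and Insig1 for LIF against control at -0.29 (adjusted p = 0.0126). At the lowest count among the 31, 136 in Abca1, counting error adds to the spread between replicates.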
